A study of Mus musculus with 10 samples.

Results

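The Cacng genes, Cacng1 to Cacng8, encode small membrane proteins that were named as gamma subunits of voltage-gated calcium channels. These 8 genes, of 26089 genes with a curated RefSeq transcript on the mm10 chromosomes scanned, were chosen by name, with the REST peaks of this series already known to include a strong one at Cacng2. A peak of either deposited list was given to a gene when it overlapped the gene body or lay within 5 kb of a start site. REST binding was measured by ChIP-seq, with an antibody to the C terminus of REST, in bulk cortex of 11-month-old female WT mice and 3xTg mice of the same sex and age. The 3xTg mice, which model Alzheimer's disease and have a mixed strain background, carry APPSwe and tauP301L transgenes of human origin together with a mutant PS1 knock-in allele. Each genotype had 4 ChIP replicates, each a pool of 4 cortices, and 1 library of input chromatin, 10 samples in all. The authors combined the replicates of a genotype into 1 peak list, so no value below has a replicate spread, and no difference between WT and 3xTg was tested here. The authors' own differential binding analysis reported peaks with significantly higher REST binding in 3xTg and none with significantly lower binding. The presence of peaks, their fold enrichment and their rank stand behind the choice of these genes and are given as a description. The lists hold no expression values, so the labelled tissue was not checked against markers, and in bulk cortex the cell type in which a site was bound is not visible.

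Some of these proteins have a second role that is better known in the brain. The transmembrane AMPA receptor regulatory proteins (TARPs) bind AMPA-type glutamate receptors, the main carriers of fast excitatory transmission, bring them to the cell surface and to the postsynaptic density, and change how their channels open and close. The type I TARPs are encoded by Cacng2 (stargazin, the protein lost in the stargazer mouse), Cacng3, Cacng4 and Cacng8, and the type II TARPs by Cacng5 and Cacng7. Cacng1 encodes the gamma subunit of the skeletal muscle calcium channel, and Cacng6 a related protein that is not counted as a TARP. REST is a repressor that keeps neuronal genes low in cells that are not neurons and is also present in neurons of the aging brain. It recognizes a DNA element, RE1, whose left and right arms several zinc fingers of REST contact separately.

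Peaks were found at 2 of the 8 genes (25.0%), Cacng2 and Cacng3, in both lists. Both are type I TARP genes. The other 2 type I genes, Cacng4 and Cacng8, the type II genes Cacng5 and Cacng7, and Cacng1 and Cacng6 had no peak in either list. By the same rule, 9.3% of all genes had a WT peak, 14.2% had a 3xTg peak, and 7.78% had one in both lists. With 8 genes, 1 of them known beforehand, these counts describe the family and no more. Within 5 kb of a start site alone, the same 2 genes had a peak, against 6.72% of all genes in WT and 9.87% in 3xTg.

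What the start-site peaks of Cacng2 and Cacng3 share is a repeated, uncommon arrangement of the arms of RE1. In RE1 the left arm TCAGCACC is followed by the right arm GGACAGC with 2 bases between them. In both peaks the left arm instead stands as its reverse complement, GGTGCTGA, and the right arm follows it on the same strand after 2 or 3 bases, an arrangement called here an inverted-left pair. These pairs are shown because both peaks hold them in repeats around their summits, while their closest full RE1 matches had 7 and 5 mismatches. The arrangement was noticed at these 2 genes and then counted elsewhere. Capitals mark arm bases that match, and lower case marks the bases between the arms and any mismatch. Each sequence was read from mm10, 5′ to 3′ on the strand named.
Cacng2 pair at chr15:78119843-78119860, plus strand: GGTGCTGAaacGGACAGC
Cacng2 pair at chr15:78119899-78119916, plus strand: aGTGCTGAagtGGACAGC
Cacng2 pair at chr15:78119955-78119972, plus strand: GGTGCTGgactGGACAGC
Cacng2 pair at chr15:78120009-78120026, plus strand: GGTGCTGAactGGACAaC
Cacng3 pair at chr7:122670938-122670954, minus strand: GGTGCTGAagGGACAGC
Cacng3 pair at chr7:122671010-122671026, minus strand: GGTGCTGAgcGGACAGC

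The 4 Cacng2 pairs all had 3 bases between the arms, and the first matched both arms at all 15 bases. The other 3 had 1 mismatch each. Their starts lay 56, 56 and 54 bases apart. The 2 Cacng3 pairs had 2 bases between the arms, matched at all 15 bases, and started 72 bases apart. Cacng2 is transcribed from the minus strand and Cacng3 from the plus strand, so in both genes the pairs read on the strand opposite to the gene. Measured from the curated RefSeq start sites to the centre of each pair, they also lay at a similar distance upstream. This was between 571.5 and 737.5 bases at Cacng2 and 726 and 798 bases at Cacng3. The likeness depends on the annotation. By the GENCODE starts given below, the pairs lie inside both genes, nearer to the start at Cacng2 than at Cacng3. Outside the pairs the stretches were compared base by base, with no gaps allowed. Over the 36 bases after each Cacng2 pair, the first and second stretch had 27 identical bases (75.0%), and the other combinations had 11 to 16 (30.6% to 44.4%). At Cacng3 the 2 stretches had 20 of 55 identical bases (36.4%). An inserted or missing base would lower such shares. The stretch after the last pair of each gene, read on the strand of the pairs, also runs beyond the repeats. Whether the stretches are alike when gaps are allowed was not tested.

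The summits lay among these pairs, nearer to some than to others. At Cacng2 the 3xTg summit lay 1.5 bases from the centre of the second pair, and the WT summit lay 24.5 bases from it and 31.5 bases from the third. At Cacng3 the WT summit lay 3 bases from the centre of the first pair and the 3xTg summit 15 bases from it. The remaining pairs lay farther off. The exact pair of Cacng2 was 80.5 bases from the WT summit and 57.5 bases from the 3xTg summit, the fourth pair was 85.5 and 108.5 bases from them, and the second Cacng3 pair was 75 and 57 bases from its summits.

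**Figure D1:**
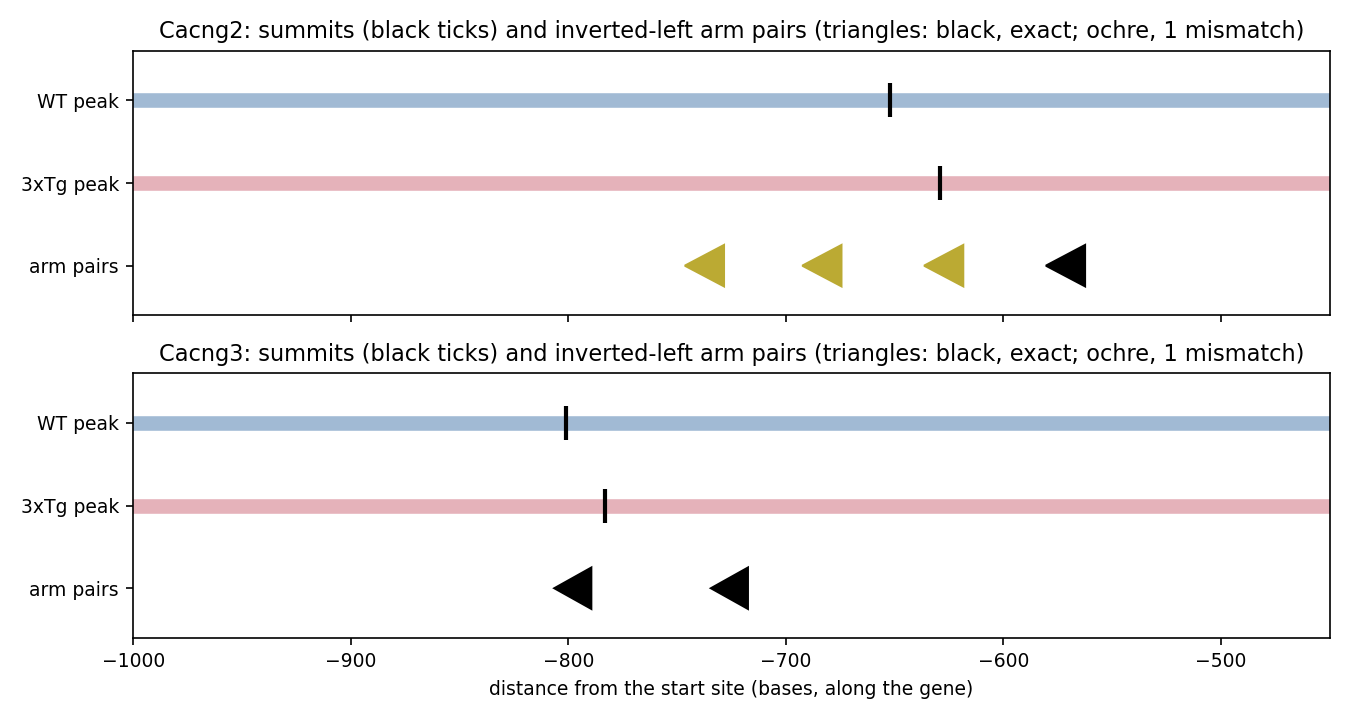
Positions of the summits (black ticks) and of the inverted-left pairs of arms (triangles, drawn to scale and pointing the way they read) at Cacng2 and Cacng3, in bases from the RefSeq start site along the gene. Both peaks of each gene span the whole window shown, the 4 Cacng2 pairs and the 2 Cacng3 pairs point away from the gene, and the summits lie among them.

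Inverted-left pairs with 2 or 3 bases between the arms and at most 1 mismatch were rare in the genome. There were 649 on the 20 chromosomes scanned on both strands, of which 14 (2.16%) lay in a WT peak and 19 (2.93%) in a 3xTg peak. Of the 34 that matched exactly, 9 (26.5%) lay in a WT peak and 12 (35.3%) in a 3xTg peak, and 3 of these 12 were the exact pairs of Cacng2 and Cacng3. For comparison, the RE1 order with 2 bases between exact arms occurred 191 times, with 48 (25.1%) in a WT peak and 55 (28.8%) in a 3xTg peak. With at most 1 mismatch it occurred 1120 times, with 157 (14.0%) in a WT peak and 182 (16.25%) in a 3xTg peak. At that tolerance the shares were thus larger for the RE1 order than for inverted-left pairs (2.16% and 2.93%). Of the 615 inverted-left pairs with 1 mismatch, 7 (1.14%) lay in a 3xTg peak, and 3 of these 7 were the Cacng2 pairs. A single inverted-left pair with 1 mismatch was therefore seldom under a peak, and those of Cacng2 stood next to an exact pair.

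Repeated pairs were rarer still. The genome held 4 places where 2 or more inverted-left pairs started within 200 bases of each other, and the 2 of them that lay in peaks were those of Cacng2 and Cacng3. The place with 4 pairs was Cacng2. The place with 3 pairs, none of them exact, lay 35341 bases from the start site of Syf2, and the remaining one, with 2 pairs, lay 121908 bases from that of Nova1, and neither was in a peak of either list. Repeated pairs in the RE1 order, with 2 bases between the arms, were found at 28 places, of which 25 lay in peaks of both lists. Within 100 bases on either side of a summit, 8 of the 3006 WT peaks (0.266%) and 12 of the 5077 3xTg peaks (0.236%) held an inverted-left pair of this kind, against 1 window in each list placed 10 kb downstream (0.0333% and 0.0197%). Among the 100 peaks of highest fold enrichment in each list, 2 held one, and these were the peaks at Cacng2 and Cacng3. With any gap up to 20 bases between the arms, 6 of the 100 highest peaks in each list held an inverted-left pair. Pairs with the right arm before the left arm, at any such gap, were in 11 of these peaks in WT and 8 in 3xTg. Pairs in the RE1 order with 2 or 3 bases between the arms were held by 118 WT peaks (3.925%) and 138 3xTg peaks (2.72%). Of the 100 highest peaks, 26 in WT and 20 in 3xTg held such a pair. The inverted-left arrangement was picked because Cacng2 and Cacng3 have it, so the counts are a description of how uncommon it is and not a test.

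The annotations differ on what the pairs lie in. By curated RefSeq transcripts they are upstream of both genes. In GENCODE vM21, Cacng2 starts at 78120028 and Cacng3 at 122670492, so all 6 pairs lie inside the gene, in an exon outside the coding part. A predicted RefSeq model of Cacng2 extends over them too. The antisense gene A730060N03Rik, given in GENCODE and as a predicted RefSeq model, starts at 78119706 on the plus strand, so the Cacng2 pairs lie in an exon of it on its own strand. The peak at Cacng2 therefore covers the starts of 2 transcripts that run in opposite directions, and the lists cannot tell which of them the binding concerns. None of the 300-base RefSeq promoter windows, from 250 bases before a start site to 50 after it, held such a pair at any of the 6 Cacng genes in that table, and 9 of the 32851 windows of all genes did (0.0274%). Cacng1 and Cacng4 were not matched in that table.

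The Cacng2 gene (chr15:77993623-78119280, minus strand) had 2 peaks in the WT list and 4 in the 3xTg list. The start-site peak spanned chr15:78119261-78121080 in WT, with a fold enrichment over the local background of 46.1, and chr15:78118725-78121329 in 3xTg, with 45.2. These values rank 16 of 3006 and 41 of 5077, rank 1 being the highest. Its −log10 q was 464 in WT and 497 in 3xTg. Counted by gene, the peak was the 8th highest among 1754 genes with a WT peak within 5 kb of a start site and the 17th highest among 2575 such genes in 3xTg.

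Cacng3 (chr7:122671744-122769393, plus strand) had 1 peak in each list, both at its start. The WT peak, chr7:122670204-122671613, had a value of 28.3 (rank 45) and ended 131 bases before the RefSeq start site. The 3xTg peak, chr7:122669845-122672827, covered the start site and reached 45.8, which gave it rank 40, next to that of Cacng2 at 41. By gene it was the 25th highest in WT and the 16th highest in 3xTg. The −log10 q was 205 in WT and 392 in 3xTg. The 2 genes had nearly the same value in the 3xTg list, while in the WT list the Cacng2 value was the higher one.

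**Figure D2:**
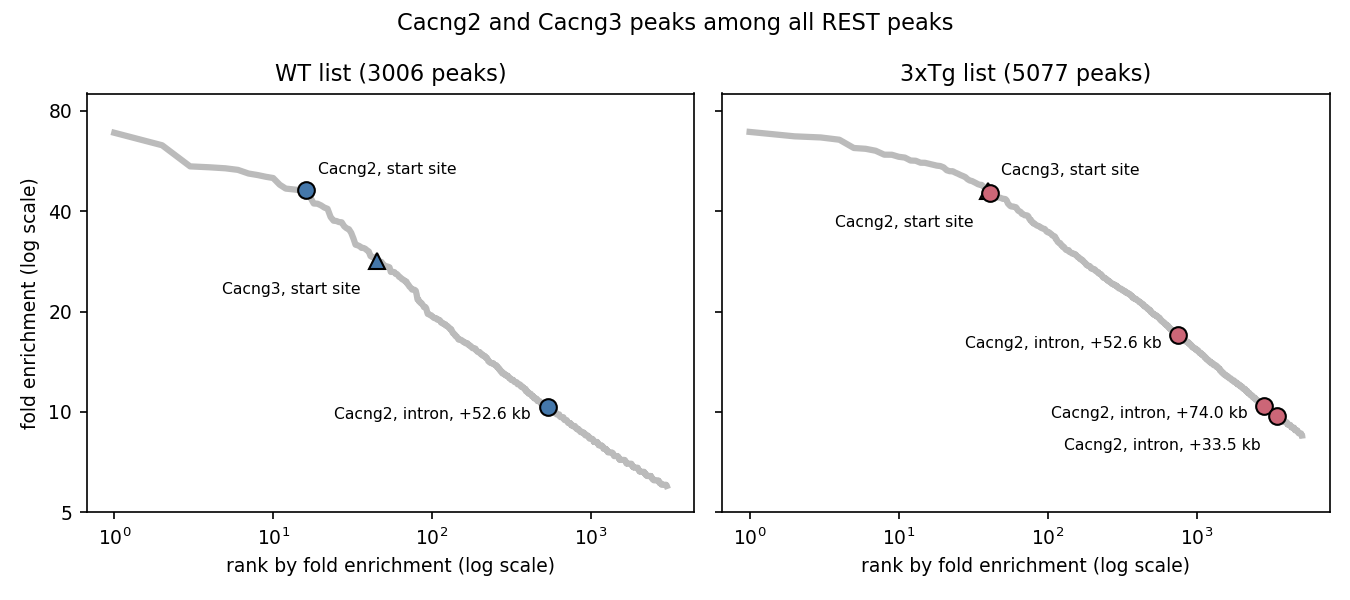
Fold enrichment of every peak against its rank (grey line, both axes on a log scale) in the WT list (3006 peaks) and the 3xTg list (5077 peaks), with the peaks of Cacng2 (circles) and Cacng3 (triangles) marked. The start-site peaks rank between 16 and 45, and the intron peaks of Cacng2 between 535 and 3454.

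The pair of lists differ in scale, which sets how these values can be read beside each other. The lowest fold enrichment was 6.003 in the WT list and 8.50 in the 3xTg list, and the medians were 7.28 and 10.8. Over the 2504 WT peaks that overlap a 3xTg peak, the fold enrichment in 3xTg was a median of 1.70 times that in WT. The ratio was 1.62 at the start of Cacng3, near that median. At the start of Cacng2 it was 0.979, one of 12 ratios below 1 among the 2504 (0.479%). Among the 100 WT peaks of highest fold enrichment, where the median ratio was 1.48, 3 ratios were below 1, that of Cacng2 included. Each ratio is a single pair of pooled values with no error, and the depth behind a peak is not in the lists. Whether the Cacng2 ratio lies beyond replicate spread cannot be told from the lists. The paper also reports REST binding at Cacng2 by ChIP-qPCR, for which it used another REST antibody.

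The 3xTg start-site peaks were also wider. At Cacng2 the width was 1820 bases in WT and 2605 in 3xTg, and at Cacng3 it was 1410 and 2983. The median width of all peaks was 611.5 bases in WT and 937 in 3xTg. The summits of the lists lay 23 bases apart at Cacng2 and 18 bases apart at Cacng3. The start-site peaks were richer in GC and in CpG than the lists as a whole. GC was 57.4% and 53.1% in the WT and 3xTg peaks of Cacng2 and 55.3% and 49.0% in those of Cacng3, against medians of 48.4% and 46.8%. The ratio of observed to expected CpG was 0.668 and 0.644 at Cacng2 and 0.542 and 0.408 at Cacng3, against medians of 0.358 and 0.293. The list medians include peaks away from start sites. Over all 300-base RefSeq promoter windows, which are narrower than these peaks, the medians were 52.7% and 0.384.

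Cacng2 had further peaks inside the gene, with their summits in introns by RefSeq and by GENCODE. The one present in both lists lay 52.6 kb into the gene, at chr15:78066299-78066863 in WT (fold enrichment 10.4, rank 535) and at chr15:78066252-78067239 in 3xTg (16.96, rank 752), a ratio of 1.64. It is shown because it holds the closest RE1 match of any Cacng peak, with 2 mismatches over 20 bases. In the lines below, capitals mark bases that match RE1.
Cacng2 intron site under a peak in both lists, chr15:78066696-78066715, minus strand: TCAGCACCtTGGAgAGCTCC
Cacng2 intron site under no peak, chr15:78029807-78029826, plus strand: TCAGCACCtTGGtCAGaGCC
Cacng7 upstream site under no peak, chr7:3328198-3328217, minus strand: TCAGgACCATGGACAGCaCC

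The centre of the first site lay 11.5 bases from the 3xTg summit and 39.5 bases from the WT summit. Sites with exactly 2 mismatches occurred 276 times in the genome, and 49 (17.8%) lay in a WT peak and 57 (20.7%) in a 3xTg peak. Peaks with a site of at most 2 mismatches made up 1.83% of the WT list and 1.28% of the 3xTg list. The remaining intron peaks of Cacng2 were in the 3xTg list alone. One, at chr15:78044712-78046372, lay 74.0 kb into the gene with a fold enrichment of 10.4 and rank 2820, and the other, at chr15:78085474-78086154, lay 33.5 kb into it with 9.70 and rank 3454. Their closest RE1 matches had 7 and 8 mismatches, which was the case for most peaks, since 82.5% of the 3xTg list had 7 or more. Both values were below the median of the 3xTg list. Their ratios of observed to expected CpG, 0.244 and 0.175, were also below the list median, while their GC, 50.1% and 52.1%, was above it.

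**Figure D3:**
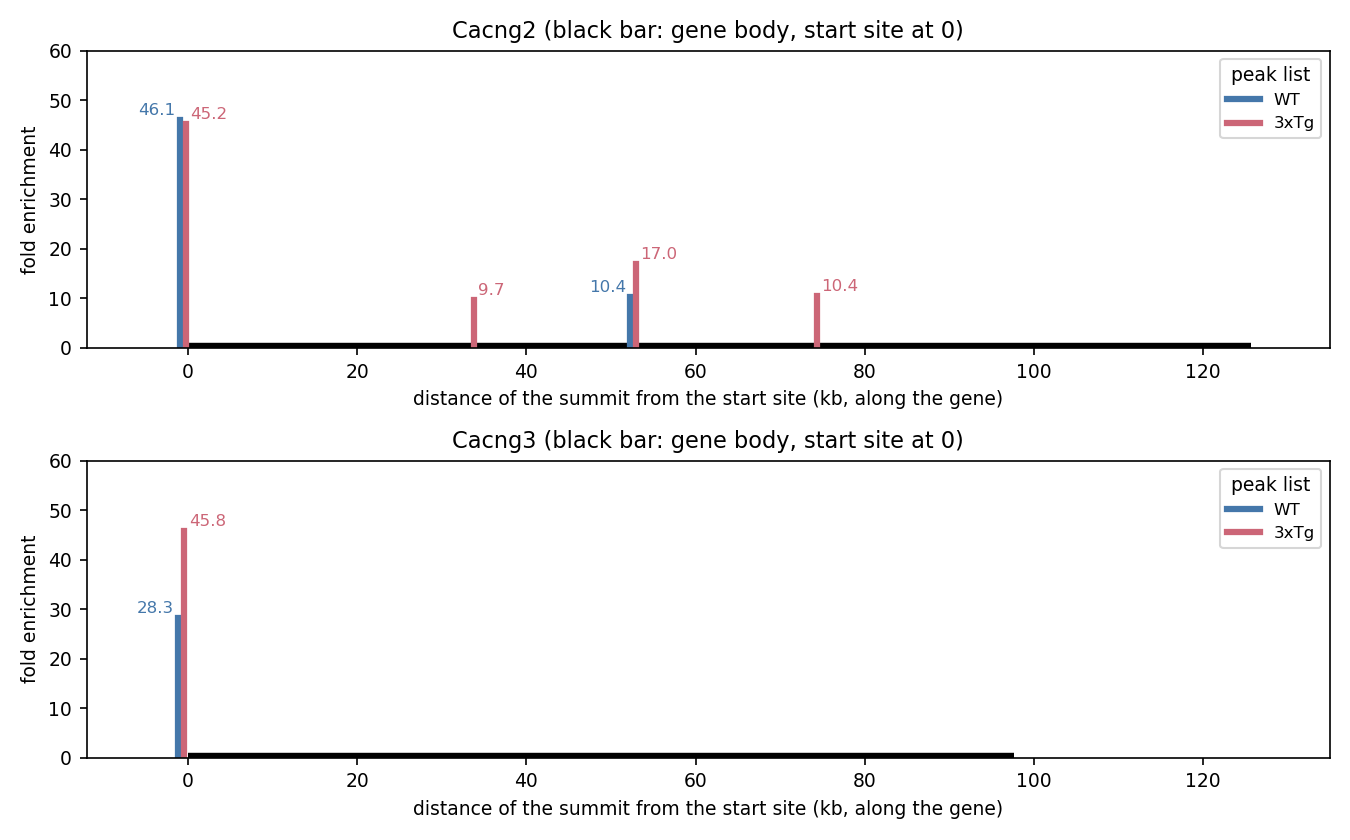
Fold enrichment of each peak of Cacng2 and Cacng3 at the distance of its summit from the RefSeq start site (kb along the gene), WT and 3xTg bars being drawn side by side at 1 position. Cacng2 has a start-site peak of 46.1 in WT and 45.2 in 3xTg, an intron peak of 10.4 and 16.96, and 2 intron peaks in 3xTg alone, while Cacng3 has its start-site peak alone.

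Gene length bears on counts of peaks inside a gene, such as the intron peaks of Cacng2. Cacng2 spans 125658 bases, and of the 1803 genes at least as long, 27.4% had a WT peak, 42.8% had a 3xTg peak and 59 (3.27%) had 4 or more 3xTg peaks. Cacng3 spans 97650 bases, and 24.7% of the 2501 genes at least as long had a WT peak and 38.9% a 3xTg peak. Its peak lay at the start, however. Within 5 kb of a start site, 6.72% of all genes had a WT peak and 9.87% a 3xTg peak. The 6 Cacng genes without a peak are shorter, from 11006 bases (Cacng6) to 62350 bases (Cacng4). Whether length bears on which Cacng genes had a peak was not tested.

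The closest full RE1 match in the start-site peak of Cacng2 had 7 mismatches. That of Cacng3 had 5, at chr7:122671019-122671038 on the plus strand, 67.5 bases from the 3xTg summit, and its left arm is that of the second inverted-left pair, so the 2 descriptions use the same bases. Exact arms were repeated in both peaks whatever their arrangement. Counted on both strands, the Cacng2 peak held 2 exact left arms and 3 exact right arms in each list. The Cacng3 peak held 2 exact right arms in each list, with 3 exact left arms in WT and 4 in the wider 3xTg peak. Peaks with 2 or more exact left arms made up 1.497% of the WT list and 1.18% of the 3xTg list, and 17 and 13 of the 100 highest peaks. RE1 matches with at most 5 mismatches were found in 30 of the 100 highest WT peaks and 25 of the 100 highest 3xTg peaks. A match is a description of letters, and neither it nor its absence shows what REST contacted.

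The 6 genes without a peak had no inverted-left pair in the gene body or the 5 kb on either side, stretches of 21006 to 72350 bases. With 649 such pairs on the 20 chromosomes scanned, a stretch of this size seldom holds one. Their absence here therefore tells nothing about binding. Cacng2 had 4 pairs and Cacng3 had 3 over the gene body and the same 5 kb, and 6 of the 7 lay in the start-site peaks. The seventh, with 1 mismatch, lay 75813 bases into Cacng3 with no peak. RE1 matches with at most 5 mismatches numbered 3 at Cacng2, 6 at Cacng3 and 2 at Cacng7. Of those at Cacng2 and at Cacng3, 1 each lay in a 3xTg peak. Cacng6 had none with at most 5 mismatches, and Cacng1, Cacng4, Cacng5 and Cacng8 had 1 to 3 with 5 mismatches each. Cacng7, a type II TARP gene, had the site printed above, with 2 mismatches as in the Cacng2 intron, 4.6 kb upstream of its start site. No peak of either list covered it. A letter match of the same closeness was thus under a peak in both lists at Cacng2 and under none at Cacng7.

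The genes without a peak lie in a pair of clusters. Cacng5, Cacng4 and Cacng1 stand together on chromosome 11, and Cacng7, Cacng8 and Cacng6 stand together on chromosome 7. Distances to the nearest peak are given for the first cluster. The nearest peak to Cacng5 lay outside the rule, which takes in no stretch past the 3′ end. It was 6721 bases past that end in WT (fold enrichment 7.38, rank 1400) and 6587 bases past it in 3xTg (12.3, rank 1808). This peak lay 43478 and 43344 bases from a start site. It was also the nearest peak to Cacng4, 72737 bases away in WT and 72385 bases away in 3xTg. The peak nearest to the body of Cacng1 lay 144041 bases away in WT and 143625 bases away in 3xTg, and it was a high one, with 25.0 (rank 65) in WT and 45.1 (rank 42) in 3xTg. The peaks at these distances were the same places in both lists.

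Peaks given by the rule to genes of partner proteins were lower than the start-site peaks of Cacng2 and Cacng3. The Cacng genes were chosen with the strong Cacng2 peak known, so this contrast is a description. The intron peaks of Cacng2, with 9.70 to 16.96, fell within the range of the partner peaks. Of 43 genes in 6 lists (AMPA receptor pore subunits, other AMPA receptor auxiliary and assembly proteins, scaffolds of the PSD-95 family, kinases that phosphorylate TARPs, and 2 lists of calcium channel subunits), 9 (20.9%) had a WT peak, 15 (34.9%) had a 3xTg peak and 8 had a peak in both lists. Of all genes, 9.3%, 14.2% and 7.78% did. Gene length bears on these shares too, and they were not matched for it. The 43 genes range up to 1358461 bases, and many are long. Of the 2501 genes at least as long as Cacng3, 24.7% had a WT peak and 38.9% a 3xTg peak. Within 5 kb of a start site, 1 of the 43 (2.33%) had a WT peak, against 6.72% of all genes, and 6 (14.0%) had a 3xTg peak, against 9.87%. Among the peaks that the rule gave to the 43 genes, none was as high as the start-site peak of Cacng3. A peak outside the rule, 3929 bases from the body of Cnih2 in WT, was higher than that of Cacng3 there (29.3 against 28.3). The highest peak under the rule was at Cacna1d, a pore subunit gene of L-type calcium channels, with 12.5 in WT and 23.4 in 3xTg.

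Of the 4 AMPA receptor pore subunit genes, Gria2 had a peak in both lists and Gria1 in 3xTg alone. Gria2, whose edited RNA makes the receptor impermeable to calcium, had a fold enrichment of 6.43 in WT (rank 2259) and 11.7 in 3xTg (rank 2095). Of the 13 other auxiliary and assembly genes, Cnih3, a cornichon that AMPA receptors carry beside TARPs, had a peak in both lists (8.54 and 17.6), Gsg1l had one in WT alone and the other 11 had none. Among the 4 scaffold genes, Dlg2 (PSD-93) was the one with peaks, 1 in WT (9.27) and 8 in 3xTg (up to 17.1), in a gene of 1358461 bases, while Dlg4, which encodes the PSD-95 that binds the tail of stargazin, had none.

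Of the 4 kinase genes, Prkca had peaks in both lists and Camk2b and Prkcb in 3xTg alone. The highest peak was 6.997 in WT and 15.4 in 3xTg at Prkca. Of the 10 calcium channel pore genes, Cacna1c (9.37 and 16.5) and Cacna1d had peaks in both lists and Cacna1b in 3xTg alone. Of the 8 genes for alpha2delta and beta subunits, Cacna2d4 (6.54 and 10.8) and Cacnb1 (6.31 and 15.6) had peaks in both lists and 3 others in 3xTg alone.

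**Figure D4:**
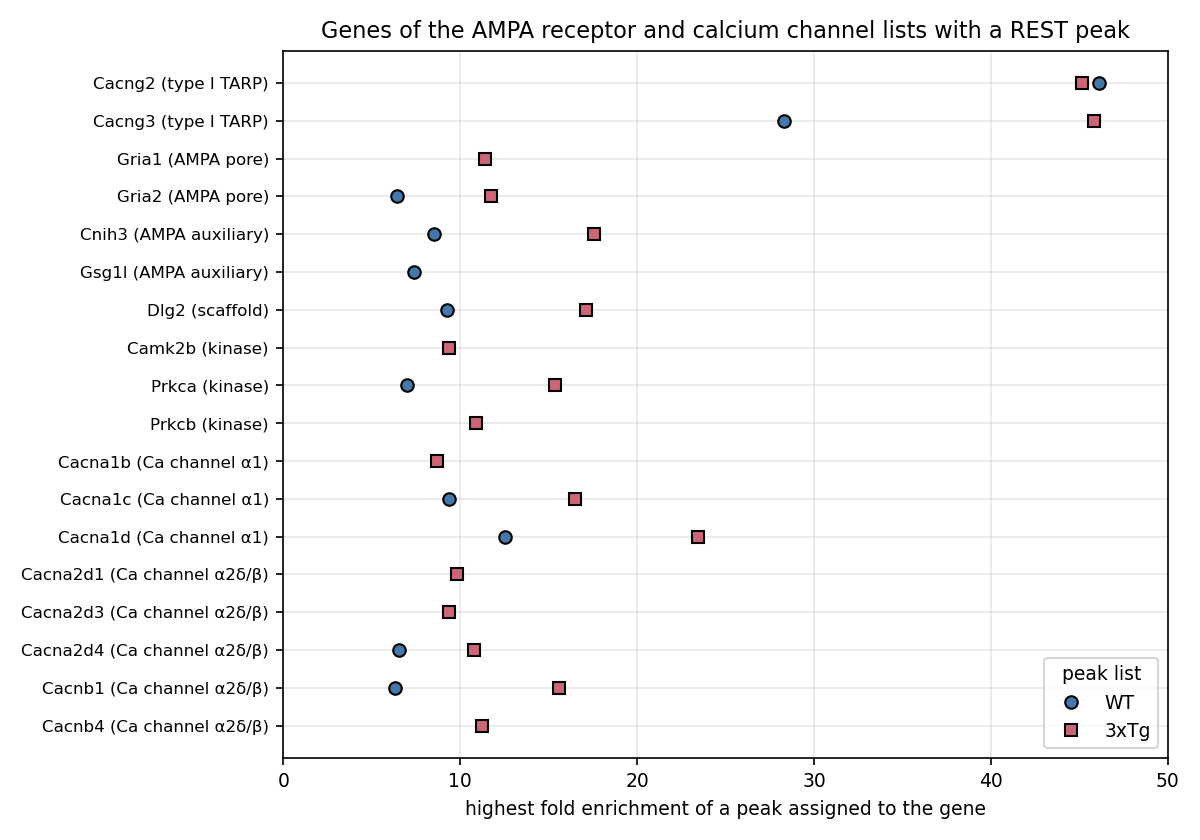
Highest fold enrichment of a peak assigned to each gene of the lists, for the genes with a peak in at least 1 list (circles, WT, and squares, 3xTg). Cacng2 and Cacng3 lie between 28.3 and 46.1, and the other 16 genes lie between 6.31 and 23.4.

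Outside these lists, the genes whose highest start-site peak was most like that of Cacng2 over the 2 lists, by distance in log2 fold enrichment, were Celsr3 (44.3 in WT and 52.1 in 3xTg, distance 0.215), Smim17 (40.6 and 38.8, distance 0.287) and Iqsec3 (42.1 and 54.1, distance 0.291). The likeness rests on 1 value per list for each gene.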

How the data were processed

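REST ChIP-seq peaks of 4 replicates per genotype were analysed from 1 deposited list for each. The authors aligned single-end reads to mm10 and called peaks with MACS, removing blacklisted regions. Their methods name STAR, while the submitters' processing notes name BWA for replicates 1 and 2 and the inputs and STAR 2.7.0a for replicates 3 and 4, so the alignment behind the pooled lists is not settled here. Each deposited peak has a score, a fold enrichment (a ratio over local background, used for values and ranks), a −log10 p-value (not used), a −log10 q-value and a summit offset. The deposited score was not used for a result. The authors' methods state a fold enrichment over 5 and q under 0.01. Read depth is not in the lists, so the precision of a peak value is unknown.

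Chromosome Y, with 4 peaks in WT and 9 in 3xTg, was excluded. Genes were curated RefSeq transcripts of GRCm38.p6 (mm10), and GENCODE vM21 was a second annotation. The known RE1 motif of the study was searched over 20 bases on both strands, a site having at most 5 mismatches. Pairs of its arms had at most 1 mismatch over 15 bases. The inverted-left arrangement was chosen after the sequences of these peaks were seen. The genes and lists were chosen with earlier results of these data known. Named genes were the 8 Cacng genes, listed genes with a peak in both lists (at most 5 per list, by 3xTg fold enrichment), and the 3 genes most like Cacng2 by start-site fold enrichment. Genes without a curated transcript or outside that rule, namely A730060N03Rik, Syf2, Nova1, Gria1, Gsg1l, Dlg4, Camk2b, Prkcb, Cacna1b and those under the other observations, were named after their values were seen. A gene of the kinase list is not reported here. Identity between the proteins was not computed. No test was made. Alternatives were other distances, annotations, thresholds, rankings and motif settings. Computations used Python 3.11.15, numpy 2.4.6, pandas 2.3.3, pysam 0.24.0 and matplotlib 3.10.9, and the searches were tested on simulated data.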

Additional observations from a re-analysis of the deposited data

How the results depend on the processing

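Cacng2 and Cacng3 were the genes with a peak in both lists under 6 of 8 other settings of assignment and threshold. Among these 6, the setting of q under 1e-05 could change nothing. It removed no peak, because the lowest −log10 q was 13.3 in WT and 29.0 in 3xTg. With the gene body alone, 1 gene had a WT peak and 1 had a peak in both lists (Cacng2), since the WT peak of Cacng3 ends before the gene. Within 50 kb of the gene body, 4 genes had a WT peak, 4 a 3xTg peak and 4 both. Keeping chromosome Y and GENCODE, both added after the data were seen, gave 2 genes in each list. The best rank of 16 in WT became 3 by −log10 q and 6 among peaks within 1 kb of a start site, and that of 40 in 3xTg (Cacng3) became 12 by −log10 q (Cacng2) and 13. Requiring that 50% of each peak be covered left 2 of 3 shared peaks. RE1 sites were in 2 peaks of each list, and in 1 of each with at most 4 mismatches. Settings for the inverted-left pairs were added after the data were seen: exact pairs alone left 1 repeated place in the genome (Cacng3), and gaps of 1 to 4 bases gave 7, of which the same 2 lay in peaks of both lists. No paired analysis was possible because each list pools the 4 replicates of a genotype, and for the same reason no replicate could be left out.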

Other observations

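The 9 exact inverted-left pairs in 3xTg peaks outside the Cacng genes lay in peaks of low or middle height, with fold enrichments between 8.66 and 20.02. Their nearest start sites were those of Gm4793, Map3k9, Cplx2, Camk2n2, Lhfpl5, Psd, Hmgn2, Tmem145 and Kcnc1, and 6 of the 9 lay in a WT peak too. Values are given for the 3 pairs nearest to a start site. The pair 395 bases from a start site of Cplx2, which encodes a complexin that binds the machinery of transmitter release, lay in a peak of 7.52 in WT and 13.7 in 3xTg. The pair 376 bases from a start site of Kcnc1, a voltage-gated potassium channel of fast-firing neurons, lay in a 3xTg peak of 9.94 and in no WT peak. The pair 35 bases from a start site of Psd lay in a peak of 7.84 in WT and 17.2 in 3xTg. Each of these places held a single pair.

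Cnih2, a cornichon that AMPA receptors carry in the forebrain, had no peak by the rule, but a high peak lay near the gene. That peak was 3929 bases from the gene body in WT (29.3, rank 41) and 3680 bases from it in 3xTg (43.0, rank 53). It lay more than 5 kb from the RefSeq start site of Cnih2, and its value was above that of Cacng3 in WT and below it in 3xTg.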
